A study of Mus musculus with 2 samples.

Results

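A group of 10 imprinted genes was followed in RNA sequencing of compressed and control cementoblast-like cells: the long noncoding RNAs (lncRNAs) H19, Meg3, Rian, Mirg and Kcnq1ot1, and the protein-coding genes Dlk1, Grb10, Peg3, Plagl1 and Mest. They were taken by symbol, and all 10 had a row among the 44792 rows of the deposited count table. The cells were OCCM-30, 1 immortalized line of mouse cementoblast-like cells with a wild type genotype, grown in a medium with serum. One library, labelled OCCM Force, came from cells under compressive force, and the other, labelled OCCM Conrol, from control cells, with 1 library per group. The sources used here do not say how large the force was or how long it lasted. With 1 library per group no difference has a replicate check, no p-value was computed, and every value compares these libraries and not the conditions.

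Imprinted genes are expressed mainly from the copy inherited from 1 parent, a choice kept by DNA methylation at control regions that was set in the egg or sperm. Many of them control growth before and after birth, paternally expressed ones often promoting it and maternally expressed ones often restraining it. Several are silent or low in most adult tissues and high in embryonic mesenchyme, muscle and cartilage precursors. The counts here do not separate the parental copies, so they show levels and say nothing of imprinting itself.

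Plagl1 was the abundant gene of the group, Mest and Grb10 were present at low levels, and the rest were at or close to 0 in both libraries. All 5 lncRNAs had 3 counts or fewer in either library, and Dlk1 and Peg3 had 0 counts in both. Grb10 was 2.47-fold higher in the compressed library, Plagl1 1.21-fold, and the counting interval of Mest included a ratio of 1. Levels are given as CPM, counts scaled to library size, on sizes scaled by the trimmed mean of M-values (TMM), and each ratio sets the compressed over the control library with a 95% interval for counting error. Library totals were 24296292 and 25049919 counts. Transcript lengths were not used here, so CPM values of different genes are not ranked against each other as levels per length.

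The regions upstream of the starts of these genes are shown to let the genes with counts be set beside those at 0. RefSeq (GRCm38.p6) gave 13 start sites for 9 of the 10 genes, and H19 had no entry. Each run below holds the 250 bases before a start, 5′ to 3′. Such a start can lie inside the gene span given further below. The runs of Dlk1, Mest and the downstream Grb10 start lie within that span. Those of Peg3 and the upstream Grb10 start overlap its edge. Capitals mark matches on either strand to TGCCGC, the hexamer that the imprint-keeping protein Zfp57 binds when methylated, or to ACGTG, the core letters of sites bound by hypoxia-inducible factors and some clock proteins. Plagl1 and Grb10 are shown as the gene with most counts and the gene with the largest ratio, Mest as the other expressed gene, and Meg3, Dlk1 and Peg3 as genes with 0 counts.
Plagl1, chr10:13090582-13090831, plus strand: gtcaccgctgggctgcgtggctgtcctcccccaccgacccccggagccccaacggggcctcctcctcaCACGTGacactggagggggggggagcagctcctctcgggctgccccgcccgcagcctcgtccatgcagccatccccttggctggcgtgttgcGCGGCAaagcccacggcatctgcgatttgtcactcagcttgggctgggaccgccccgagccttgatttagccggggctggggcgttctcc
Grb10, upstream start, chr11:12037421-12037670, minus strand: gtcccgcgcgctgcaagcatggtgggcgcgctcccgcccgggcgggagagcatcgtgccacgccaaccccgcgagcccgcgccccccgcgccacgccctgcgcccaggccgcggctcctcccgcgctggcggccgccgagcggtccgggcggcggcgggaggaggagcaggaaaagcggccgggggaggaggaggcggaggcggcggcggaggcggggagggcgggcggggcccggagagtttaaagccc
Grb10, downstream start, chr11:12027972-12028221, minus strand: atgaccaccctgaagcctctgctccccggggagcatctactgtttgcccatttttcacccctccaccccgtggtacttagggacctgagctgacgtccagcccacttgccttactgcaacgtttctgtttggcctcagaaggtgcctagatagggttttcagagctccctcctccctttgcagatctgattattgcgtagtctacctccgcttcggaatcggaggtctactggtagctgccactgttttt
Mest, chr6:30737800-30738049, plus strand: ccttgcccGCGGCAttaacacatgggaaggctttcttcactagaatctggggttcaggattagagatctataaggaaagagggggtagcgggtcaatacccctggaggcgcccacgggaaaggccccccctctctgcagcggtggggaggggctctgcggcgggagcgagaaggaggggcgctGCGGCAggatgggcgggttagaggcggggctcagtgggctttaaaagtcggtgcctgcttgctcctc
Meg3, chr12:109540746-109540995, plus strand: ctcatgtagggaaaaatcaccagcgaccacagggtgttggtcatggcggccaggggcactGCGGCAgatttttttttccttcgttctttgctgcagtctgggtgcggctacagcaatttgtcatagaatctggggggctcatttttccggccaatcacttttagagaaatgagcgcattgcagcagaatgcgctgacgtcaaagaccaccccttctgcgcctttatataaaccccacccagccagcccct
Dlk1, chr12:109452573-109452822, plus strand: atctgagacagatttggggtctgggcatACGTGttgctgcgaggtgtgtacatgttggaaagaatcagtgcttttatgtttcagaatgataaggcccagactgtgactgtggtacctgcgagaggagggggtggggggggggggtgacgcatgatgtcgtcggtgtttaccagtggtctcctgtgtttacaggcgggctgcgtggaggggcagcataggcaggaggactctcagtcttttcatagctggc
Peg3, chr7:6730420-6730669, minus strand: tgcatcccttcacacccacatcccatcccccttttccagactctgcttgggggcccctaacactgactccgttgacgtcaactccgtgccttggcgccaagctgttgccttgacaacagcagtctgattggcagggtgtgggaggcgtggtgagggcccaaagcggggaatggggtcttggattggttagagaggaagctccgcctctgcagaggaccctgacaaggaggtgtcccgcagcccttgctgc

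The upstream Grb10 window held 40 CpG dinucleotides at 81.2% G+C, while its downstream window held 8 at 54%. Plagl1 had 19 CpGs at 70.4% G+C and the Mest window shown 14 at 62.4%. Meg3 had 10 in the window shown and 0 in its other window, Dlk1 had 8 and Peg3 8. The median over 32851 windows of the RefSeq table was 6 CpGs, and over 11554 windows of genes above the expression minimum used below it was 16. The hexamer TGCCGC was present in the windows of Plagl1, Mest and Meg3, in 8.7% of all windows and in 14.5% of windows of genes above the minimum. It occurred in 4 of the 13 windows, of which 2 were overlapping windows of Mest. The remaining Mest window, with 7 CpGs, and the other Meg3 window held no match to it. The letters ACGTG occurred in Plagl1, Dlk1 and Kcnq1ot1, in 3 of the 13 windows against 16.6% of all windows and 21.6% of those of genes above the minimum. In Plagl1 the 2 matches were a single palindrome read on both strands. Neither motif was in the windows of Grb10 shown here. A match is a description of the letters and not a binding site.

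Plagl1 encodes a zinc finger transcription factor, also called Zac1, that can halt the cell cycle and is normally expressed from the paternal copy. It lies on chromosome 10 at 13090832 to 13131694 (GRCm38). It had 1447 counts with force and 1236 without, or 59.6 and 49.3 CPM. These were 94.9% and 96.5% of all counts of the 10 genes. The ratio was 1.21 (1.12 to 1.30), so the interval lay above 1 while the size stayed far below the 2-fold limit used for calls. Among all 14001 genes above the minimum, 26.3% had an interval above 1 and 28.6% an interval below 1, so such an interval is common at this depth. With an assumed coefficient of variation of 0.1 between cultures, the interval widened to 0.906 to 1.61 and included 1.

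Grb10 encodes an adaptor protein that binds the activated insulin and IGF1 receptors and restrains their growth signal. It lies on chromosome 11 at 11930499 to 12037428. It had 39 counts with force and 16 without, or 1.61 and 0.638 CPM, a ratio of 2.47 (1.37 to 4.82). A gene was called when 1 CPM was reached in 1 of the libraries, the ratio was past 2-fold either way, and 1 lay outside the interval. Grb10 was the gene of the 10 that met this rule, as 1 gene called higher and 0 called lower. Over all 14001 genes above the minimum, 3.06% were called higher and 0.929% lower, or 3.99% either way. The shares were 2.48% and 0.51% for mRNAs, and 7.84% and 3.38% for lncRNAs, of which none of the 5 here reached the minimum. Grb10 passed the minimum through the compressed library alone, and genes so near the minimum are called more often. Of the 1336 genes whose higher value lay between 1 and 2 CPM, 11.8% were called higher and 6.21% lower.

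Mest, also called Peg1, encodes a protein of the alpha/beta hydrolase fold and is a paternally expressed marker of growing mesenchyme. It lies on chromosome 6 at 30733506 to 30748466. It had 35 counts with force and 27 without, or 1.44 and 1.08 CPM. The ratio was 1.33 (0.787 to 2.30), and a difference was not detectable at this depth. It overlaps 913 bases of Copg2, a coat protein gene with 1480 against 1074 counts. The strand setting of the counting is not given, so reads in that overlap cannot be assigned.

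**Figure D1:**
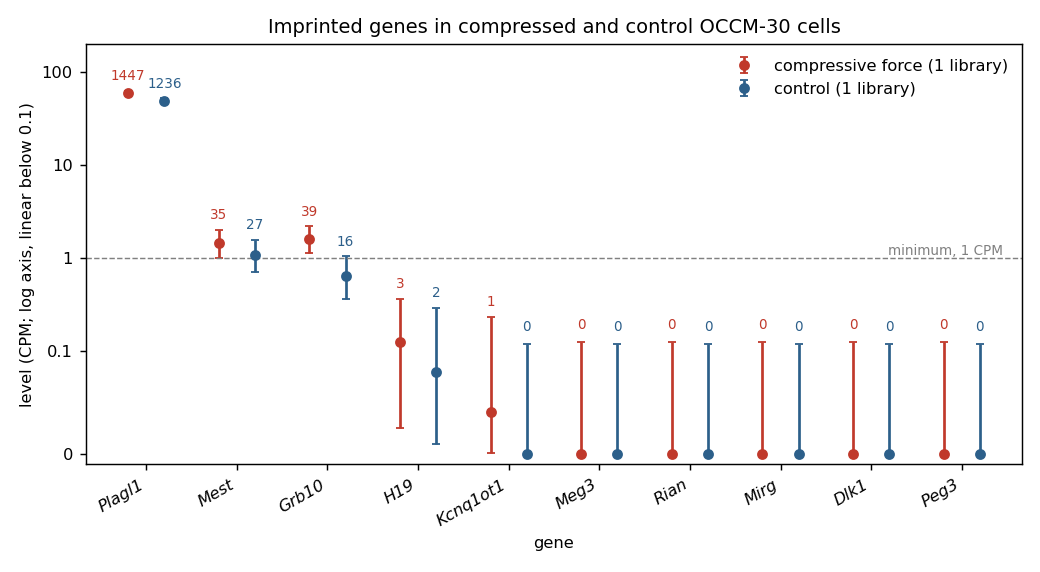
Level of each of the 10 imprinted genes in the compressed (red) and control (blue) library, in CPM on a log axis that is linear below 0.1. Points are single libraries with their counts printed above, bars are exact 95% Poisson limits, or the limit that a count of 0 allows, and the dashed line is the 1 CPM minimum. Plagl1 stands at 59.6 and 49.3 CPM, Mest and Grb10 between 0.638 and 1.61 CPM, and the other genes at 0.124 CPM or less.

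H19, a maternally expressed lncRNA that is among the most abundant transcripts of fetal muscle and cartilage, had 3 counts with force and 2 without. It lies on chromosome 7 at 142575530 to 142578146. Kcnq1ot1, a paternally expressed antisense lncRNA that silences its neighbours in cis, had 1 count against 0. It lies on chromosome 7 at 143213111 to 143296547, wholly inside Kcnq1, a potassium channel gene with 0 counts against 1. The strand setting and overlap rule of the counting are not given, so the low counts of both may in part reflect how reads were assigned, which was not tested. No fold is given for either lncRNA, since both libraries were at or below 3 counts.

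Meg3, Rian and Mirg, maternally expressed lncRNAs that form 1 long transcription domain, had 0 counts in both libraries. So did Dlk1, their paternally expressed neighbour, a membrane protein with EGF repeats that holds back adipocyte differentiation, and Peg3, a paternally expressed zinc finger gene. By counting error alone, a count of 0 allows up to 0.124 CPM with force and 0.12 CPM without, taken as 3 counts of each scaled total. Meg3, Rian, Mirg and Peg3 overlap other rows. How reads in overlaps were counted is not given, so for these 4 genes the limit may not bound the true level. Being listed at 0 was common in this table: it held for 49.2% of all rows, 64.3% of the lncRNA rows and 35.1% of the mRNA rows. Among the 10 genes it held for 5, namely 3 of the 5 lncRNAs and 2 of the 5 mRNAs.

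The 0 counts of the Dlk1 domain covered every row placed between Dlk1 and Mirg. From the start of Dlk1 to the end of Mirg, on chromosome 12 at 109452485 to 109749458, 71 rows of the table matched a RefSeq position, 58 of them microRNA rows. All 71 had 0 counts in both libraries. The lncRNA Rian alone overlaps 11 of these rows, small nucleolar RNAs, microRNAs and Rtl1, and Mirg overlaps 9. No gene within 500 kb of Meg3, Rian or Mirg reached 1 CPM, out of 73 rows in each window. The nearest genes above 1 CPM were Wdr25, 424 kb before the start of Dlk1, with 91 counts against 131, and Ppp2r5c, 697.7 kb after the end of Mirg, with 345 against 393. Rtl1, the retrotransposon-like gene antisense to part of the domain, and Dio3os had 0 counts in both libraries. Outside the stretch, Dio3, the thyroid hormone deiodinase, had 0 counts against 1 and Begain 0 against 3.

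Rows next to Peg3 were also listed at 0. It lies on chromosome 7 at 6703892 to 6730462, and its neighbours Usp29, Zim1, Zim3 and Peg3os had 0 counts in both libraries. Zim2 had 0 counts against 1. Zfp28, a zinc finger gene 277.8 kb from the stretch between Zim1 and Peg3, was the nearest gene above 1 CPM on 1 side, with 563 counts against 500 and a ratio of 1.16 (1.03 to 1.31). On the other side it was Zfp954, at 384.2 kb, with 490 counts against 435.

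Gnas, an imprinted gene for the stimulatory G protein subunit that nearly all cell types express, had 0 counts with force and 2 without. It was chosen after its values were seen. How reads with several alignments or several overlapping genes were counted is not given, and its part in the 0 counts was not tested.

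MicroRNA hairpins lie inside H19, Mest, Meg3, Rian and Mirg, and they are shown because each is a product of a transcript described above. RefSeq places 17 hairpin loci inside these 5 genes, and 16 of them had a row in the table. Mir675, inside H19, had 2 counts against 0, and the other 15 had 0 counts in both libraries. A representative of each host is printed with its seed, bases 2 to 8, in capitals, on GRCm38.p6.
miR-675-5p (H19), chr7:142577112-142577133, minus strand: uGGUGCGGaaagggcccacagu
miR-675-3p (H19), chr7:142577078-142577099, minus strand: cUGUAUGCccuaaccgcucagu
miR-335-5p (Mest), chr6:30741314-30741336, plus strand: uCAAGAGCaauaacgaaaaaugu
miR-770-5p (Meg3), chr12:109563710-109563731, plus strand: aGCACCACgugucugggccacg
miR-370-3p (Rian), chr12:109618305-109618326, plus strand: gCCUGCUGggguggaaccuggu
miR-154-5p (Mirg), chr12:109738438-109738459, plus strand: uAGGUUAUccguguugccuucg
miR-410-3p (Mirg), chr12:109743764-109743784, plus strand: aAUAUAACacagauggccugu

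The 32 mature microRNAs of these hairpins carried 31 different seeds. The seed GGUUGCC was shared by miR-453 and miR-496a-5p, both inside Mirg, and no other seed occurred in more than 1 of them. Of 46 microRNA rows listed for H19, Mest and the Dlk1 domain, 45 had 0 counts in both libraries, against 45% of all 1140 microRNA and precursor rows. The sources used here do not say whether the libraries kept RNA as short as a mature microRNA.

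Neighbours of H19 and Kcnq1ot1 were examined next. Igf2, the fetal growth factor that is reciprocally imprinted with H19, had 147 counts with force and 107 without, or 6.05 and 4.27 CPM. Its ratio was 1.42 (1.10 to 1.84), with an interval above 1 and no call. Cdkn1c, a maternally expressed cell cycle inhibitor in the domain that Kcnq1ot1 silences, had 0 counts against 2. Of 11 genes listed around Kcnq1ot1, 4 were above 1 CPM. Phlda2, Slc22a18 and Tspan32 had between 7 and 20 counts in either library, and Kcnq1, Cdkn1c, Ascl2 and Trpm5 had 2 or fewer. Among the 4, the tetraspanin Cd81 had a ratio of 1.20 (1.14 to 1.25), the histone chaperone Nap1l4 1.03 (0.976 to 1.080), Osbpl5 0.868 (0.814 to 0.925) and Tssc4 0.827 (0.759 to 0.901).

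Within 500 kb of Grb10, the DNA repair gene Fignl1 and the actin nucleator Cobl were the genes above 1 CPM, with ratios of 0.918 (0.864 to 0.976) and 1.03 (0.931 to 1.15). Neither shared the higher value of Grb10. Ddc, the decarboxylase gene next to Grb10 that is imprinted in heart, had 20 counts against 8, a ratio of 2.49 (1.09 to 6.77), but lay below 1 CPM in both libraries and was chosen after its values were seen. With no minimum, 3.39% of the genes with a count were called higher. Around Plagl1, 8 other genes were above 1 CPM and none was called. The syntaxin gene Stx11, also chosen after its values were seen, was the closest to the limit at 1.95 (1.61 to 2.37), and the ribosome assembly gene Ltv1 had 0.770 (0.703 to 0.843). Phactr2, a neighbour of Plagl1 imprinted in placenta, had 735 counts against 744. Around Mest, 8 other genes were above 1 CPM and none was called. Copg2 had 1.42 (1.31 to 1.54) and Cep41, a centrosome gene, 1.02 (0.897 to 1.15).

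**Figure D2:**
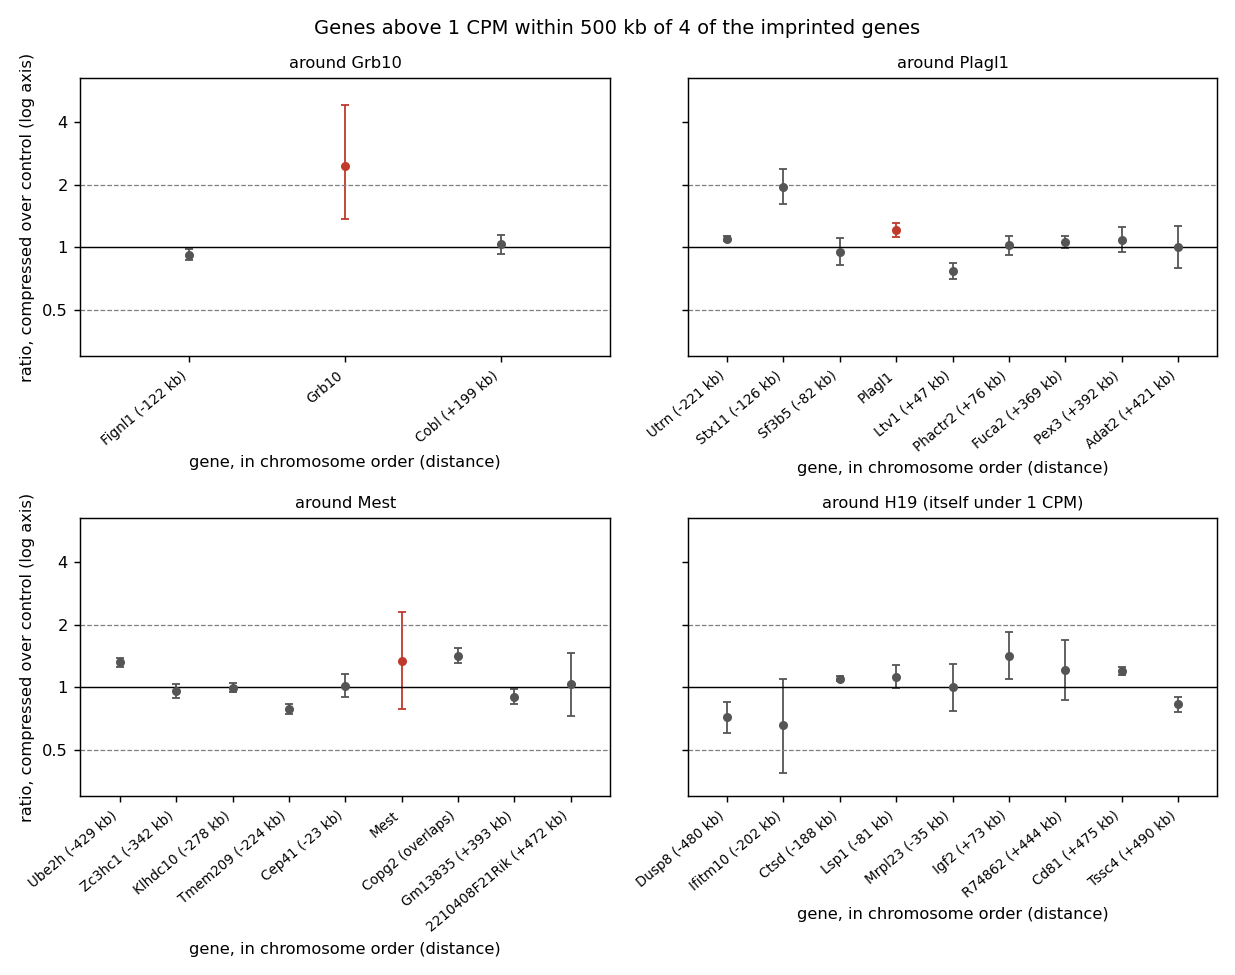
Ratio of the compressed over the control library (log axis) for genes above 1 CPM within 500 kb of Grb10, Plagl1, Mest and H19, in chromosome order with the distance in kb. Points are single ratios with 95% counting intervals, the named gene is in red where it is above 1 CPM, and dashed lines mark ratios of 0.5 and 2. Grb10 at 2.47 stands above the 2 genes around it, at 0.918 and 1.03.

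The wider set of imprinted genes and cluster neighbours gave no call. Of 80 listed genes other than the 10, 74 had a row, 27 of them had 0 counts in both libraries, and 31 were above 1 CPM. Of those 31, 0 were called higher and 0 lower, beside the 3.06% and 0.929% of all genes. Their median log2 ratio was 0.03, against -0.01 over all genes, with 11 intervals above 1 and 7 below. Dcn, a small matrix proteoglycan imprinted in placenta, had 80 counts against 47 and the highest ratio, 1.75 (1.21 to 2.57). Sfmbt2, a Polycomb-related gene, followed with 1.43 (1.21 to 1.69). At the low end, Mcts2, a retrogene within an intron of H13, had 0.688 (0.593 to 0.796), and Peg13, a lncRNA inside Trappc9, had 0.774 (0.680 to 0.879). Overlaps such as Peg13 with Trappc9 and Airn with Igf2r leave those counts uncertain. Airn, the antisense lncRNA of the Igf2r locus, was listed with 491 counts against 518, of which an unknown part may belong to Igf2r.

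A set of 16 genes known as the imprinted gene network, which are co-expressed in growing tissues and linked to Plagl1 and H19, shares 7 genes with the 10. Of these 16, 8 were above 1 CPM, and 1 of them, Grb10, was called higher, beside 3.06% of all genes. The 8 had ratios above 1 and 5 had intervals above 1, beside 48.6% and 26.3% of all genes. Grb10 passed the minimum only through the library where it was higher, and Cdkn1c, Gnas and Gatm, each at 0 counts against 2, did not enter, so the tally is a description of the 8. Their median log2 ratio was 0.45, and 0.21 over the 4 genes left at a minimum of 5 CPM. The other 7 were Dcn, Igf2, Slc38a4 at 1.41 (0.999 to 2.002), Mest, Plagl1, Igf2r at 1.10 (1.04 to 1.17) and Sgce at 1.02 (0.946 to 1.10). The remaining 8 were H19, Meg3, Dlk1, Peg3, Cdkn1c, Gnas, Gatm and Ndn, each at 3 counts or fewer in both libraries.

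**Figure D3:**
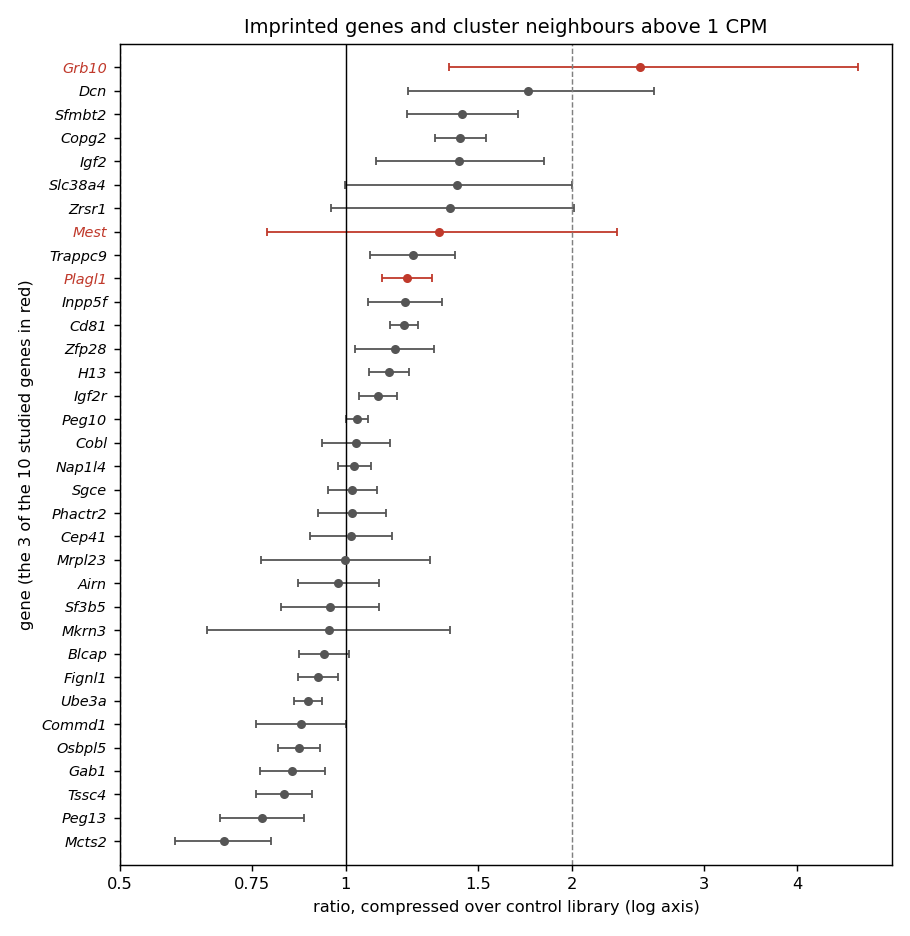
Ratio of the compressed over the control library (log axis) for the 34 imprinted genes and cluster neighbours above 1 CPM, ordered by ratio, with Plagl1, Mest and Grb10 in red. Points are single ratios, bars are 95% counting intervals, and the dashed line marks a ratio of 2. Grb10 is the gene past it, at 2.47, and its interval from 1.37 to 4.82 is wide.

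Genes of the pathway in which Igf2 and Grb10 act were also counted. All 14 listed genes of IGF and insulin signalling, among them ligands, receptors, substrates, kinases and Igf2 mRNA-binding proteins, were above 1 CPM. Of these, 0 were called higher and 0 lower, beside 3.06% and 0.929% of all genes. Their median log2 ratio was -0.04. Insr, the insulin receptor to which Grb10 binds, had 3480 counts against 2527, a ratio of 1.42 (1.35 to 1.496). Igf1r had 1.16 (1.07 to 1.27). Irs1, a receptor substrate that relays the signal, had the lowest ratio, 0.610 (0.580 to 0.641). Its counts were 2434 against 4119. Igf2bp3 and Igf2bp1, which bind Igf2 and H19 transcripts, had 0.668 (0.616 to 0.724) and 0.832 (0.789 to 0.877).

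Of 20 factors that keep imprints or act on DNA methylation, 17 were above 1 CPM, and their median log2 ratio was -0.02. Tet2, an enzyme that oxidizes methylcytosine, was the 1 gene of the 17 called higher, with 3587 counts against 1650 and a ratio of 2.24 (2.12 to 2.38). None was called lower, and the shares over all genes were 3.06% higher and 0.929% lower. Tet1 had 1.57 (1.37 to 1.82). Zfp57, which keeps methylation at imprinted control regions, had 1267 counts against 1390, or 52.2 and 55.5 CPM, and a ratio of 0.941 (0.871 to 1.02). Its partner Trim28 had 0.872 (0.849 to 0.895) and Setdb1 0.888 (0.850 to 0.928). The insulator protein gene Ctcf, which binds the control region between H19 and Igf2, had 134 counts against 161, and Ezh2 had 1.18 (1.11 to 1.24).

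Relatives of the 10 genes outside imprinted clusters were listed together with Notch receptors, which are not of their families. Dlk2, the homologue of Dlk1, had 569 counts against 862, a ratio of 0.681 (0.612 to 0.758). Notch receptors, with which Dlk1 is known to interact, included Notch3, called higher with 2923 counts against 852 and a ratio of 3.54 (3.28 to 3.83). Notch2 had 0.923 (0.898 to 0.948). Plag1, a growth-promoting relative of Plagl1, had 376 counts against 239, a ratio of 1.62 (1.38 to 1.92). Grb14, the adaptor closest in kind to Grb10, had 54 counts against 31, or 1.78-fold (1.14 to 2.89). Grb2 had 0.985 (0.935 to 1.04). In all, 1 of the 8 listed genes above 1 CPM, Notch3, was called higher and 0 lower, beside 3.06% and 0.929% of all genes. Their median log2 ratio was 0.20, against -0.01 over all genes, and became -0.02 at a minimum of 5 CPM.

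**Figure D4:**
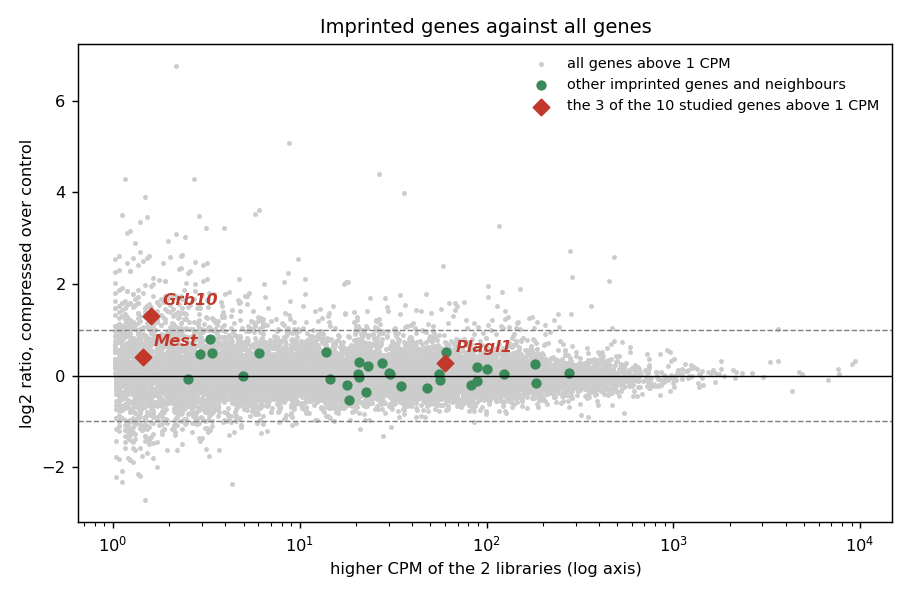
Log2 ratio of the compressed over the control library against the higher of the 2 CPM values (log axis) for the 14001 genes above 1 CPM (grey), with other imprinted genes and neighbours in green and Plagl1, Mest and Grb10 in red. Dashed lines mark 2-fold differences. Grb10, at a log2 ratio of 1.30, lies in the low range where the grey points spread most, while Plagl1, at 0.27, lies within the band of abundant genes.

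Cell identity was checked by markers. Of 12 cementoblast and osteoblast markers 9 were above 1 CPM. Their summed level, 15226.3 and 14723.1 CPM with and without force, was mostly Col1a1, Col1a2 and Sparc, matrix genes that other mesenchymal cells also express. Of the others, Runx2 had 4416 counts against 5788, Spp1 4769 against 4460, Alpl 859 against 817 and the transcription factor Sp7 99 against 98. Ibsp had 0 counts in both libraries, Bglap 12 against 11 and Dmp1 24 against 14, all below 1 CPM. Phospho1 was called higher and Panx3 lower. Other cell types that make H19, Dlk1 or Mest had few transcripts. Of 8 myoblast markers, Des was above 1 CPM, with 125 counts against 87, while Myod1, Myf5 and Pax7 were at 0, and the list summed to 5.52 and 4.03 CPM. Of 8 adipocyte markers, Cebpa was above it, with 80 counts against 97, and the list summed to 3.75 and 4.87 CPM. Macrophage and osteoclast markers summed to 20.1 and 20.99 CPM, with 4 of 8 above the minimum and Ptprc at 0. Endothelial and epithelial markers summed to 6.26 and 5.99 CPM, with 3 of 10 above it and Kdr, Krt5 and Epcam at 0. Of 12 genes known to respond to hypoxia, listed with earlier results of these libraries known, 10 were called higher and 0 lower. Over all genes the shares were 3.06% and 0.929%. The 12 hypoxia genes had a median log2 ratio of 2.23. Their part in the values of the 10 imprinted genes was not tested. In bulk samples, fewer cells of a type and less RNA per cell cannot be told apart.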

How the data were processed

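The authors deposited whole-number read counts per gene for 2 libraries, with a gene symbol and type in each of 44792 rows. The submitters' processing notes name HISAT2 and the GRCm38 build. The sources used here name no counting tool, strand setting or rule for multiply aligned reads. From the deposited counts, TMM factors (edgeR 4.0.16, R 4.3.3) gave effective library sizes of 24285887.1 and 25060651.3, on which CPM and ratios were computed with a prior count of 0.5. Intervals are exact 95% conditional binomial (Clopper-Pearson) limits. Reads are not independent molecules, so intervals and the floor of 3 counts cover counting error only. Symbols were matched to a RefSeq table of GRCm38.p6 (32097 of 44792, 71.7%), and positions count from 1. The calling rule was run on simulated counts with counting error only, so variation between cultures was not covered. The simulated differences were larger, and set in more abundant genes, than that of Grb10. Alternatives were other scalings (DESeq2 1.42.0 size factors, total counts, upper quartile), CPM minimums, a fold limit of 1.5, no interval requirement, a prior count of 5 and wider intervals.

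The 10 genes and the gene lists were chosen with earlier results of these libraries known. The naming rule took all 10 genes, Igf2 and Cdkn1c, and was to name every called gene of a list and up to 3 of its highest and 3 of its lowest ratios. Hypoxia genes and some markers are given as counts only, because the text is about the imprinted genes. Genes at 0 counts, the 500 kb windows and a few others were chosen after their values were seen. With 2 libraries, no genes could be named for a like pattern.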

Additional observations from a re-analysis of the deposited data

How the results depend on the processing

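No paired analysis was possible because each group holds 1 library, and for the same reason no replicate could be left out. The interval of Grb10 excluded 1 when widened for an assumed coefficient of variation of 0.2 (1.07 to 5.70), the largest value tried. Variation between cultures was not measured, and Grb10 passed the minimum through the compressed library alone, so this is no check of the difference. With a prior count of 5 the log2 ratio of Grb10 was 1.10. The 3 other scalings shift all genes alike, by -0.012 to 0.011 on the log2 scale, and could not end its call, nor could dropping the interval requirement. A minimum of 5 CPM removed it by construction, leaving 0 of the 10 genes called. For Plagl1 the interval widened for a coefficient of 0.2 was 0.690 to 2.11, and the log2 ratio stayed 0.27 by construction. Counts over all genes were 428 higher and 130 lower. Without a CPM minimum they were 773 and 369, with a minimum of 5 CPM 154 and 12, and with a fold limit of 1.5 they were 1023 and 520. Among other imprinted genes and neighbours 0 were called under the main rule. Without a minimum, 1 of the 47 with a count was called higher (Ddc), beside 3.39% of all 22774 genes with a count. With a fold limit of 1.5, 1 of the 31 above 1 CPM was called higher (Dcn), beside 1023 of all 14001 genes. Of 7 genes at 3 counts or fewer, none allows a fold at this depth.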
